A study of Mus musculus with 8 samples.

Results

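TRBD1 and TRBD2 are the diversity (D) segments of the mouse TCRβ locus, and one of them is joined between a V and a J segment when a TCRβ chain is made. Their use was read from the D call of each TCRβ (TRB) chain of single CD8+ T cells. Of 256940 TRB rows, 173595 came from barcodes without a multiplet mark. Among these, 75494 carried TRBD1, 53159 carried TRBD2 and 44942 had no D call. A cell clone repeats its chain, so the unit used below is the distinct rearrangement of a table, a nucleotide CDR3 with its V and J segment. There were 128419 of them, with 56337 called TRBD1, 38470 called TRBD2 and 33612 without a D call. The CDR3 is the stretch from the last cysteine of the V segment to the phenylalanine of the J segment, and its middle holds the D.

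The study sequenced TCR chains of CD8+ T cells from thymus and spleen of mice at baseline, and from thymus and tumor of mice bearing B16-OVA or B16-F10 melanoma. The animals of the series were Pdcd1fl/fl controls or Pdcd1 cKO mice, which carry the same floxed allele and in addition a CD8 E8I-Cre, so that PD-1 is lost in CD8+ cells. The 8 labelled samples were multiplexed sublibraries without a condition, and neither genotype, tumor model nor age is given for a mouse in the labels. The tables came from 7 mice, 14 tables in all, with a thymus table from every mouse. A spleen table came from mouse-155A and mouse-155C. The other 5 mice, mouse-164B and mouse-164C as well as mouse-160A, mouse-160B and mouse-160C, gave a tumor table. Mouse and tissue were taken from the names the tables were deposited under, so no group was formed. The labelled CD8+ identity could not be checked, because the libraries hold TCR chains and no other transcripts.

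A table held between 1874 (mouse-160A tumor) and 17807 (mouse-160B tumor) distinct rearrangements, with a median of 8088. The annotation was held here only in part for 3 tables and covered 29.9% of the barcodes in mouse-164C tumor, 40.5% in mouse-164B thymus and 92.6% in mouse-160B thymus. No barcode was found in more than 1 table (0 of 154847). Of 102742 distinct rearrangements over all tables, 17326 (16.9%) were nevertheless found in 2 or more animals, and 55.7% of the rows rested on 1 transcript. A rearrangement found in several tables counts once in each. Values without those of several animals are given for the TRBD2 share by J cluster, the V gene TRBV31 and untemplated bases.

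D segments are flanked on both sides by recombination signals, short heptamer and nonamer motifs set apart by a spacer, at which the RAG recombinase cuts. A D is first joined to a J, and a V is then joined to the DJ product. TRBD1 lies upstream of both J clusters and can be joined to either. TRBD2 lies between the TRBJ1 and the TRBJ2 cluster, so a join of TRBD2 to a TRBJ1 segment would run against the order of the locus. Exonucleases trim the D at both ends and terminal transferase adds untemplated bases, so that the D seen in a chain is usually a shortened copy.

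The germline segments were read from GRCm39 with 28 bases before and 39 bases after, which hold the recombination signals. Both lie on the plus strand of chromosome 6, TRBD1 at chr6:41510135-41510146 and TRBD2 at chr6:41519097-41519110, where the annotation names each a D gene segment. They are shown because a D call can separate them only by the few bases in which they differ, and the D itself is in capitals.
TRBD1: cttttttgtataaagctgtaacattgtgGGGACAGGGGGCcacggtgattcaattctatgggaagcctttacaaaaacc
TRBD2: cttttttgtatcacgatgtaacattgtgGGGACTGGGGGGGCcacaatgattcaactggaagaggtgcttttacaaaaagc
TRBD1 has 12 bases and TRBD2 has 14. Counted from the first base of the D, TRBD1 and TRBD2 differ at base 6 as A6T, and TRBD2 has a longer run of G after it. TRBD1 ends 651 bases before TRBJ1-1 and TRBD2 ends 577 bases before TRBJ2-1. A gap of 6556 bases lies between TRBJ1-6 and TRBD2. TRBV31, the V segment downstream of both D segments, lies 15516 bases past TRBD2 on the opposite strand and is joined by inversion.

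TRBD2 was called mostly in chains with a TRBJ2 segment. In TRBJ2 chains, TRBD2 made up a median of 55.7% of the D-called rearrangements of a table. The lowest table was mouse-155C thymus at 54.2% and the highest was mouse-164C tumor at 58.5%. In TRBJ1 chains the median was 8.18%, from 6.74% in mouse-160B thymus to 12.1% in mouse-160A tumor. The TRBJ1 and TRBJ2 values did not overlap in any of the 14 tables. The share was higher in TRBJ2 chains by 47.6 percentage points ± 1.29 (SD, n = 7 mice, the mean of each animal's tables), in 7 of 7 mice, with an exact two-sided sign-flip permutation p = 0.015625. That is the smallest p that 7 animals allow, and the adjusted p over the 8 tests made was 0.0179. Without the rearrangements found in several animals the difference was 48.3 points. The mice are separate animals, but their genotypes and tumors are mixed in an unknown way, and the SD holds those differences too.

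**Figure D1:**
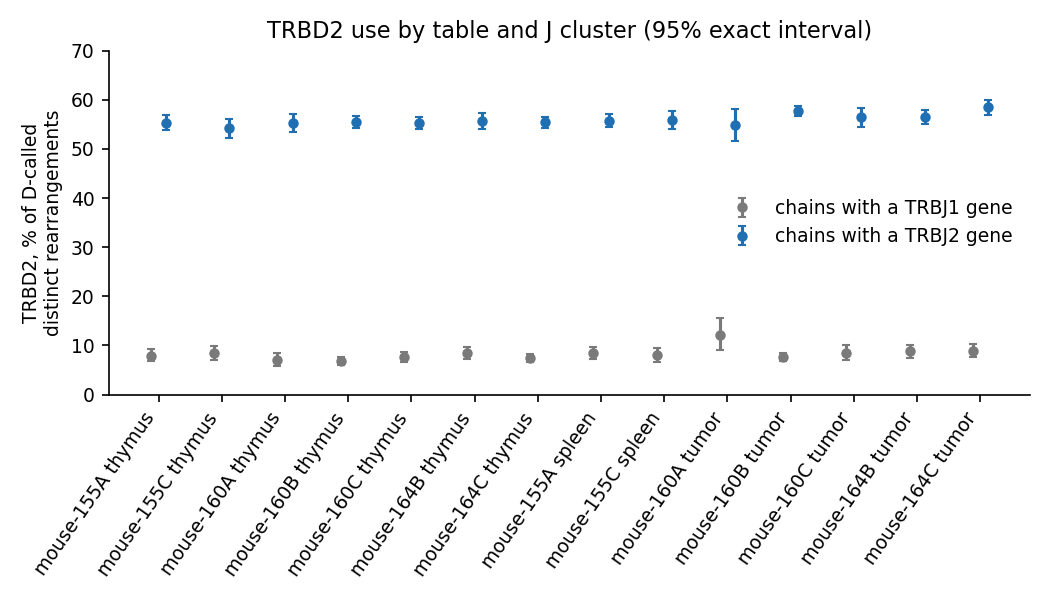
Share of TRBD2 among D-called distinct rearrangements (y axis, %) in each of the 14 tables (x axis), for chains with a TRBJ1 (grey) or TRBJ2 (blue) segment. Bars are exact 95% binomial intervals. TRBJ2 chains lie between 54.2% and 58.5% and TRBJ1 chains between 6.74% and 12.1%, and the widest interval is that of the smallest table, mouse-160A tumor.

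Chains without a D call were more frequent with TRBJ1. The share without a call was 32.4% to 37.9% in TRBJ1 chains, with a median of 33.4%. In TRBJ2 chains it was 21.1% to 23.8%, with a median of 22.1%. The share in TRBJ2 chains was lower by 11.7 points, a difference of -11.7 ± 1.15 (SD, n = 7 mice, exact sign-flip p = 0.015625, adjusted p 0.0179), and it was lower in 7 of 7 mice. No table of one J cluster reached the range of the other.

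The TRBD2 calls in TRBJ1 chains were short matches. A call in the files rests on at least 5 bases aligned to the germline D. The lengths and matches below count mismatched bases within the alignment too. Of 2401 TRBD2 calls with TRBJ1, 2303 (95.9%) matched 5 to 8 bases, against 47.7% of the TRBD2 calls with TRBJ2. Among TRBJ1 chains with 5 to 8 matched bases, TRBD2 made up 9.60% of calls (exact 95% interval 9.23 to 9.98), and among those with 9 or more it made up 1.50% (1.22 to 1.83). In TRBJ2 chains the shares ran the other way, 44.2% (43.7 to 44.7) at 5 to 8 bases and 74.4% (73.9 to 75.0) at 9 or more. These intervals, like the others below, cover counting error only.

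The matched bases themselves differed between the J clusters. The match that TRBD2 calls with TRBJ1 showed most often was GGGGGG (428 chains, 17.8% of them), which lies inside the G run at 2 places, followed by GGGGGGG (326 chains) and GGGGGGC (285 chains). None of these reaches base 6. With TRBJ2, the commonest TRBD2 matches were GGGACTGGGGG (1713 chains), CTGGGGG (1706 chains) and CTGGGGGG (1660 chains), which all hold the T at base 6. The match did not span base 6 in 52.2% of the TRBD2 calls with TRBJ1 and in 10.8% of those with TRBJ2. For TRBD1 the commonest match was GGGACA with both J clusters, in 2582 TRBJ1 chains and 2052 TRBJ2 chains.

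Among D calls whose match spans base 6, TRBD2 made up 4.22% of those with TRBJ1 (table range 3.50 to 5.95). It made up 56.5% of those with TRBJ2 (54.5 to 59.0). Matches whose bases occur in both germline segments were called TRBD1 in every case. There were 1998 such calls in TRBJ1 chains and 3408 in TRBJ2 chains, and 0 of either number was called TRBD2, which allows shares of up to 0.150% and 0.0880%. These chains cannot tell the D segments apart, and they made up 6.55% and 5.30% of the calls.

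The share of TRBD2 by the length of the match is shown from 5 to 12 bases, since TRBD1 has no more than 12. In TRBJ2 chains it was 20.3% at 5 bases, 54.9% at 7, 62.4% at 9 and 82.7% at 12 bases. In TRBJ1 chains it was 6.47% at 5 bases, 13.9% at 7, 1.47% at 9 and 1.65% at 12 bases. The curves were closest at 5 bases and farthest apart at 12. Beyond 12 bases the call can be TRBD2 alone, and 10 TRBJ1 chains had a 13-base match.

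**Figure D2:**
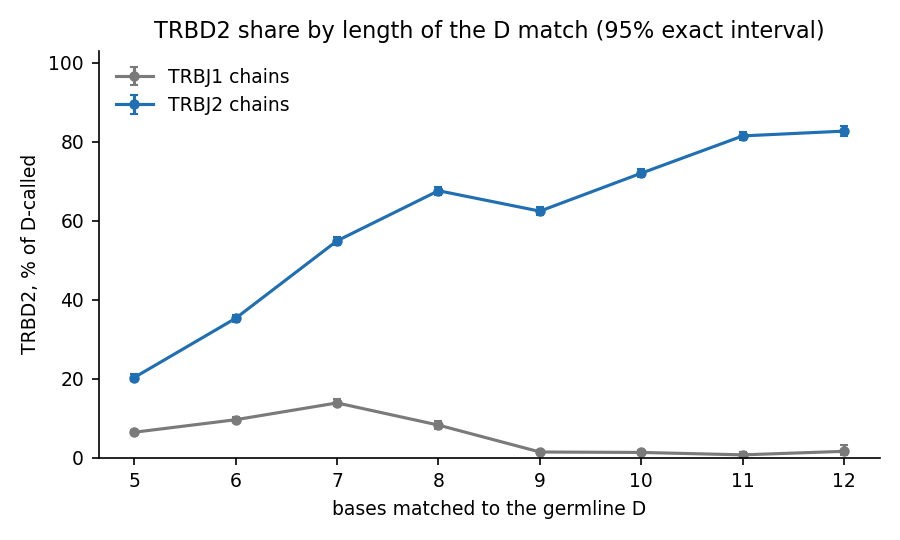
Share of TRBD2 among D-called distinct rearrangements (y axis, %) by the number of bases matched to the germline D (x axis), over all 14 tables, for TRBJ1 (grey) and TRBJ2 (blue) chains. Bars are exact 95% binomial intervals. TRBJ2 chains reach 82.7% at 12 bases, and TRBJ1 chains peak at 13.9% at 7 bases and lie at 1.65% or below from 9 to 12 bases.

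All 13 TRBJ entries with at least 100 D-called rearrangements followed their cluster. Within TRBJ1, the TRBD2 share ran from 6.44% (exact 95% interval 5.43 to 7.58) for TRBJ1-5 to 10.8% (8.28 to 13.9) for TRBJ1-3_2, with 8.11% for TRBJ1-1, 7.82% for TRBJ1-2, 8.87% for TRBJ1-3_1, 7.35% for TRBJ1-4 and 7.48% for TRBJ1-6. TRBJ1-3_1 and TRBJ1-3_2 are the names the files use for variants of a single J segment. The intervals of neighbouring values overlapped, and no order among TRBJ1 segments is read from them.

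TRBJ2 segments differed more. TRBJ2-2 had the lowest TRBD2 share at 45.6% (44.2 to 46.9), and its tables ran from 41.7% to 51.7%. TRBJ2-3 had the highest at 59.7% (58.6 to 60.7), with tables from 56.6% to 65.1%, so that the tables of TRBJ2-2 and TRBJ2-3 did not overlap. Between them lay TRBJ2-7 at 54.9%, TRBJ2-1 at 56.2%, TRBJ2-5 at 58.0% and TRBJ2-4 at 59.2%. The shares did not rise or fall steadily with distance from TRBD2: TRBJ2-1, the nearest segment, lay in the middle. With 9 or more matched bases TRBJ2-2 was again lowest at 66.2%, and TRBJ2-4 was highest at 78.7%. No test was made between J segments.

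The share of chains without a D call also varied by J. It was highest for TRBJ1-6 at 38.6% and for TRBJ1-3_2 at 38.3%, and lowest for TRBJ2-1 at 19.6%. Within TRBJ2 it was highest for TRBJ2-4 at 26.0%.

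**Figure D3:**
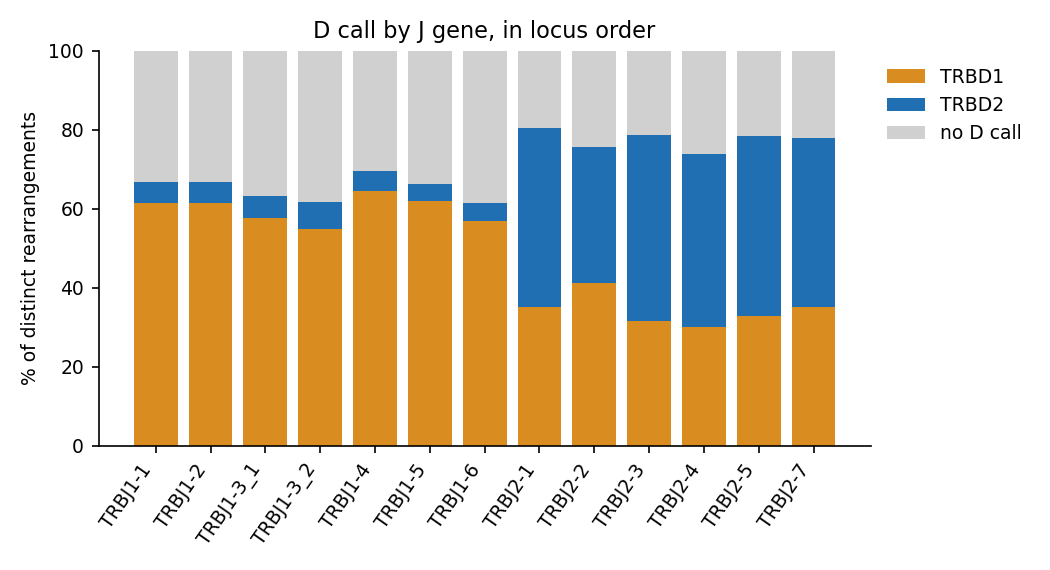
Distinct rearrangements of each TRBJ entry (x axis, in locus order) divided by D call (y axis, % of the entry's rearrangements), TRBD1 orange, TRBD2 blue and no D call grey. The blue part is small in every TRBJ1 bar, where TRBD2 makes up 6.44% to 10.8% of the D-called chains, and among TRBJ2 bars it is smallest for TRBJ2-2.

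Within TRBJ2 chains the D call varied with the V gene. Among 20 V genes with at least 200 D-called TRBJ2 rearrangements, the TRBD2 share had a median of 55.6%, and 17 lay above 50%. TRBV4 had the highest share, 66.9% (65.2 to 68.6), with tables from 60.9% to 75.2%. TRBV13-2 had 64.1% (63.0 to 65.2), with tables from 56.7% to 68.7%, and TRBV31 had 63.8% (61.6 to 66.0), with tables from 59.3% to 71.1%. The lowest were TRBV29 with 32.3% (30.9 to 33.8), TRBV26_1 with 33.4% (31.1 to 35.7) and TRBV14 with 43.4% (41.6 to 45.1). The share without a D call differed too, with 13.1% for TRBV4, 21.2% for TRBV13-2 and 18.8% for TRBV31. It was 27.3% for TRBV29, 27.8% for TRBV26_1 and 23.4% for TRBV14, and its part in the TRBD2 shares was not tested.

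The tables of the low and the high V genes stood apart. TRBV29 lay between 28.2% and 44.7% and TRBV26_1 between 26.7% and 43.1%, below the lowest table of TRBV4, TRBV13-2 and TRBV31. TRBV14 lay between 37.5% and 47.7%, also below them. The V genes were ordered by this share, so the gap between the ends is a description. At 9 or more matched bases TRBV29 had 46.4% and TRBV26_1 had 53.0%, against 82.4% for TRBV4 and 82.2% for TRBV13-2. In TRBJ1 chains, TRBV29 had a TRBD2 share of 8.93% (7.86 to 10.1), TRBV26_1 6.50% (5.15 to 8.06) and TRBV4 4.30% (3.17 to 5.67). TRBV14 had 13.4% (11.6 to 15.4).

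TRBV29 and TRBV26_1 are, of the V genes shown upstream of the D segments, those nearest to TRBD1. Over the 19 V genes other than TRBV31, the TRBD2 share was lower for V genes nearer to the D segments, with Spearman's rho -0.73 and Pearson's r -0.61. With 9 or more matched bases rho was -0.75. These are descriptions across genes from the same libraries, which share depth and animals, and genes are not independent replicates. TRBV14 and TRBV16, close to each other in the middle of the locus, had 43.4% and 61.9%.

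TRBV31 was the V gene set against the others by test. Its TRBD2 share in TRBJ2 chains had a median of 64.1% over tables, against 55.4% for the other V genes together. The difference was above 0 in 14 of 14 tables and ran from 3.26 points in mouse-164B tumor to 17.4 points in mouse-155C thymus. As means of an animal's tables it ran from 5.18 points in mouse-160B to 12.7 points in mouse-155C. The mean was 8.76 points ± 3.20 (SD, n = 7 mice, exact sign-flip p = 0.015625, adjusted p 0.0179), in 7 of 7 mice. Without the rearrangements found in several animals it was 6.47 points ± 4.27 (exact p = 0.03125). TRBV31 was not set apart from the other high V genes: TRBV2 had 63.8% (61.7 to 65.9) and TRBV3 63.2% (61.8 to 64.6).

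**Figure D4:**
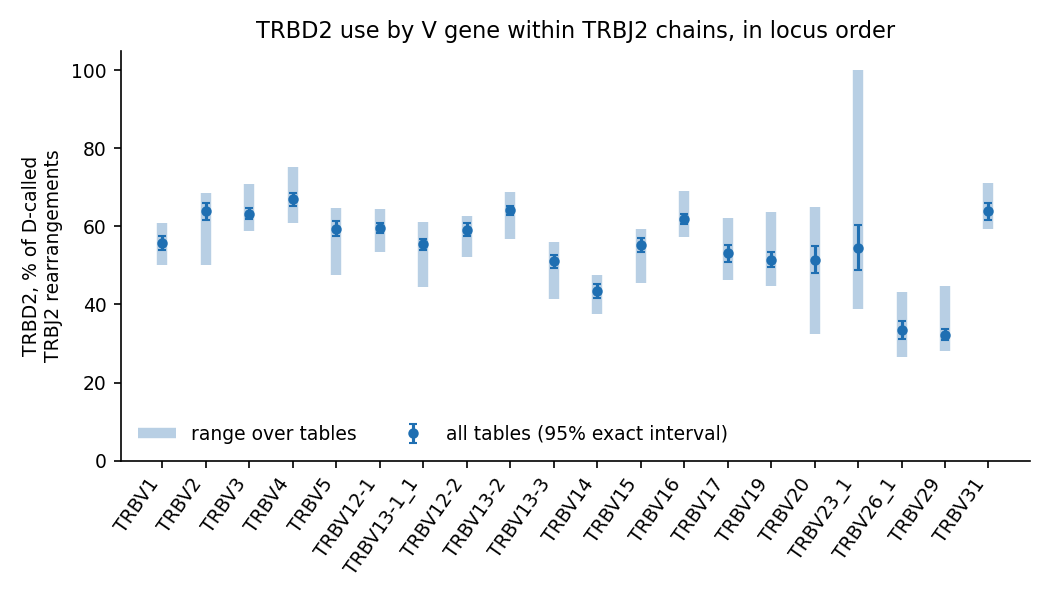
Share of TRBD2 among D-called TRBJ2 rearrangements (y axis, %) for the 20 V genes with at least 200 of them (x axis, in locus order, TRBV31 lying downstream of the D segments). Points are all tables together with exact 95% binomial intervals, and pale bars are the range over tables. TRBV26_1 at 33.4% and TRBV29 at 32.3% lie lowest and TRBV4 at 66.9% highest, and the wide bar of TRBV23_1 rests on few rearrangements per table.

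Among TRBJ2 chains, those with TRBD2 had longer CDR3s than those with TRBD1. The mean CDR3 of a table was 43.8 to 44.2 bases with TRBD2 and 41.5 to 42.0 bases with TRBD1. The difference was 2.20 bases ± 0.0625 (SD, n = 7 mice, exact sign-flip p = 0.015625, adjusted p 0.0179), in 7 of 7 mice. The matched part of the D was longer by 1.84 bases ± 0.0364 (n = 7 mice, the same exact p and adjusted p), with a table median of 8.84 bases for TRBD2 and 6.99 for TRBD1. The germline TRBD2 has 14 bases and TRBD1 has 12. Short matches found in both segments were all called TRBD1 (3408 in TRBJ2 chains). Neither length is therefore independent of the D call. In TRBJ1 chains the mean CDR3 was 42.3 bases with TRBD2 and 42.6 with TRBD1, a difference that was not tested. Within TRBJ2, untemplated bases, which are all bases between V and D and between D and J that match neither, were slightly fewer with TRBD2. Their table medians were 3.68 and 3.78 bases and the difference was -0.118 ± 0.0974 (SD, n = 7 mice, exact sign-flip p = 0.03125, adjusted p 0.0313), below 0 in 6 of 7 mice. Without the rearrangements found in several animals it was -0.105, with an adjusted p of 0.0781 by the exact test.

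TRBD1 allowed the J clusters to be compared with the D held constant. The CDR3 of TRBD1 chains was longer with TRBJ1, with a table median of 42.6 bases, than with TRBJ2, with 41.8 bases. The difference was 0.798 bases ± 0.0664 (SD, n = 7 mice, exact sign-flip p = 0.015625, adjusted p 0.0179), in 7 of 7 mice. The mean TRBD1 match was 7.04 bases with TRBJ1 and 7.00 with TRBJ2. The J segments were not held constant. Over all D calls the mean CDR3 ran from 40.0 bases (TRBJ1-1) to 43.5 (TRBJ1-6) within TRBJ1. Within TRBJ2 it ran from 39.6 bases (TRBJ2-7) to 44.1 (TRBJ2-2). The part of single J segments in the difference was not tested.

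Chains without a D call were shorter. Their mean CDR3 was 38.9 to 39.4 bases in the tables, against 42.6 to 43.1 bases for D-called chains, a difference of -3.80 ± 0.105 bases (SD, n = 7 mice, exact sign-flip p = 0.015625, adjusted p 0.0179), and they were shorter in 7 of 7 mice. A D call needs 5 matched bases, so length and call are not independent. Between the V and the J match they held a mean of 6.04 bases in both J clusters. D-called TRBJ2 chains held 10.8 bases there with TRBD1 and 12.5 bases with TRBD2.

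The D call followed CDR3 length closely. In TRBJ2 chains the share without a D call was 81.2% at 10 codons (78.5 to 83.7), 46.1% at 12, 18.1% at 14, 4.14% at 16 and 1.54% at 17 codons (1.10 to 2.10). Among D-called TRBJ2 chains, TRBD2 made up 32.9% at 12 codons, 52.4% at 14, 74.1% at 16 and 82.2% at 17. In TRBJ1 chains the share of TRBD2 moved the other way, from 11.3% at 12 codons to 4.77% at 17 (3.35 to 6.58).

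**Figure D5:**
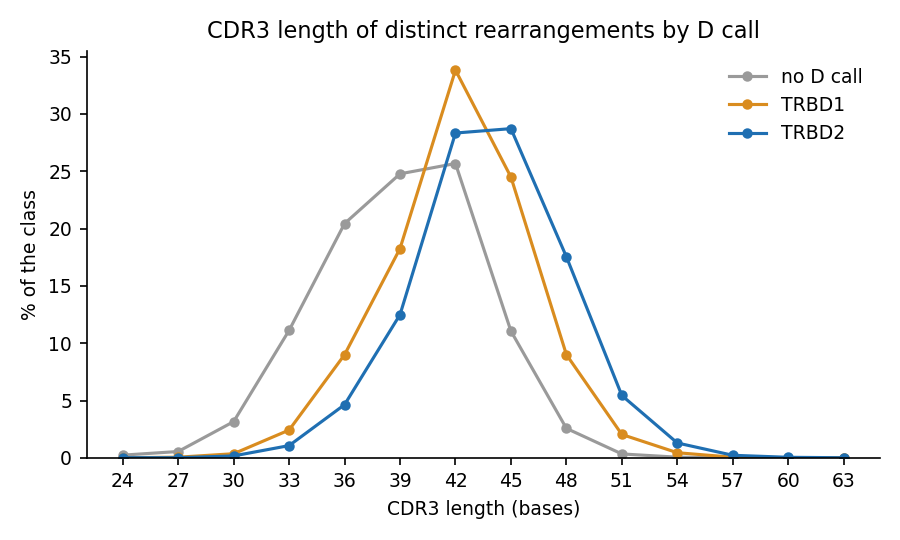
CDR3 length in bases (x axis) of distinct rearrangements by D call (y axis, % of the class with a whole number of codons), over all tables and both J clusters. Chains without a D call (grey) and with TRBD1 (orange) are most frequent at 42 bases, with 25.7% and 33.8%, and those with TRBD2 (blue) at 45 bases, with 28.7%.

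Most called D segments had been trimmed at both ends. A call needs at least 5 matched bases, so chains that kept less of the D are not in these values. In TRBJ2 chains, TRBD1 had lost a mean of 2.24 bases at its 5′ end and 2.76 at its 3′ end, and TRBD2 had lost 2.70 and 2.46. The 5′ end was whole in 32.8% of TRBD1 and 20.9% of TRBD2 chains, and the 3′ end in 14.6% and 18.3%. With TRBJ1, TRBD1 had lost 1.98 bases at the 5′ end and 2.98 at the 3′ end. In TRBJ1 chains called TRBD2 the 5′ loss was 5.14 bases and the 5′ end was whole in 5.08%. Where a match is a run of G, its place in the D is ambiguous and the leftmost place was taken.

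An uncut D was rare among the called D segments. It was found in 799 of 35948 TRBD2 chains with TRBJ2 (2.22%, 2.07 to 2.38), in 578 of 28116 TRBD1 chains with TRBJ2 (2.06%, 1.89 to 2.23) and in 477 of 27978 TRBD1 chains with TRBJ1 (1.70%, 1.56 to 1.86). No uncut TRBD2 was found among 2224 TRBD2 calls with TRBJ1, which allows up to 0.135%.

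A D can be read in any of 3 frames, and each gives its own residues. Read from its first base both segments give GTGG, from the second base GQG for TRBD1 and GLGG for TRBD2, and from the third base DRG for TRBD1 and DWGG for TRBD2. All frames were used. TRBD2 in TRBJ2 chains was read as GTGG in 34.7%, as DWGG in 33.2% and as GLGG in 32.1%. TRBD1 in TRBJ2 chains was read as GTGG in 34.8%, as DRG in 35.1% and as GQG in 30.1%. TRBD1 in TRBJ1 chains was read as GTGG more often, in 38.3% (37.7 to 38.8), with a range of 36.0 to 40.6 over tables.

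The frames leave the D visible in the protein. DWG occurred in 15.1% of TRBD2 chains and in 0.0746% of TRBD1 chains, and GLG in 10.3% and 0.264%. GQG occurred in 7.81% of TRBD1 and 0.0962% of TRBD2 chains, and DRG in 7.04% and 0.668%. GTG, which both segments encode, occurred in 8.39% and 8.46%. The D call uses the bases that encode these residues, so the shares by D call are descriptions and not independent of it. Counted without the D call, DWG was in 7.01% of TRBJ2 chains (6.29 to 7.78 over tables) and 0.148% of TRBJ1 chains (0.0857 to 0.250), and GLG in 4.85% and 0.263%. GQG was in 2.55% of TRBJ2 and 5.11% of TRBJ1 chains. These counts by J cluster do not use the D call, and for DWG, GLG and GQG the tables of the J clusters did not overlap.

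The tissues of a mouse lay close to each other in TRBD2 share when rearrangements were counted. In TRBJ2 chains the 7 thymus tables lay between 54.2% and 55.8%. The second tissue was higher than the thymus in 6 of 7 mice, with a median difference of 1.11 points. In mouse-164C it was 58.5% in tumor (57.0 to 60.0) against 55.4% in thymus (54.4 to 56.5), and these intervals did not overlap. The barcode tables, which hold every barcode, count distinct amino acid CDR3s with their V and J. By their D calls mouse-164C had 56.8% in tumor (55.9 to 57.7) against 55.5% in thymus (54.4 to 56.6), and those intervals overlapped. In mouse-160B it was 57.8% in tumor (56.8 to 58.8) against 55.6% in thymus (54.4 to 56.8). In mouse-160A it was 54.9% in tumor (51.7 to 58.1) against 55.3% in thymus (53.5 to 57.0). The spleen of mouse-155A had 55.8% against 55.3% in its thymus, and that of mouse-155C 55.9% against 54.2%. The difference between tissues was not tested. The second tissue is spleen in 2 mice and tumor in 5, and mouse-164C tumor is 1 of the tables held in part.

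Counted over both J clusters, the TRBD2 share was higher in the second tissue in 7 of 7 mice, by 0.313 to 4.93 points. The share of TRBJ2 chains moved with it, higher in 6 of 7 mice with a median of 2.55 points, and its part in that difference was not tested. The smallest TRBD2 difference was that of mouse-160C. By the D calls of the barcode tables its share was lower in tumor, at 38.7% against 39.5% in thymus. The largest was that of mouse-164C, whose tumor table was held in part. Counted by cells, the TRBD2 share over both J clusters was higher in 5 of 7 mice, with differences from -7.39 to 12.8 points.

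Counted by cells, the TRBD2 share differed widely between tumors. In TRBJ2 chains it was 52.4% to 55.3% in the thymus tables. It was 34.3% in mouse-160A tumor (32.7 to 36.0) and 48.1% in mouse-164B tumor (47.1 to 49.1), both below their thymus, and 66.7% in mouse-160C tumor (65.6 to 67.7), above it. These intervals count every cell as independent, which cells of a clone are not, so they are too narrow. The tumor tables of mouse-160B and mouse-164C had 60.9% and 59.8%. The spleen tables had 55.4% and 56.8%. In mouse-164B tumor a single TRBD1 chain held 1406 of the 9498 D-called TRBJ2 cells. In mouse-160C tumor a single TRBD2 chain held 920 of 7564. The part of such repeated chains in these shares was not tested. The tumor tables thus lay on both sides of the thymus by cells, by -19.2 to 13.3 points, while by distinct rearrangements the 7 differences lay between -0.338 and 3.08 points.

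The chains with the most cells are shown with the matched D in capitals, and are named by their V and J segments. The TRBD1 chain with the most cells, TRBV13-1_1 with TRBJ2-7, was in 1406 cells of mouse-164B tumor, 8.49% of its TRB rows (8.07 to 8.92). The TRBD2 chain with the most cells, TRBV1 with TRBJ2-2, was in 920 cells of mouse-160C tumor, 6.02% (5.65 to 6.41). Without a D call, a TRBV2 chain with TRBJ2-3 was in 517 cells of mouse-160C tumor, and a TRBV3 chain with TRBJ1-2 in 150 cells of mouse-160B thymus and 66 of its tumor.
TRBV13-1_1/TRBJ2-7, TRBD1: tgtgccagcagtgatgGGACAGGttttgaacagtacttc
TRBV1/TRBJ2-2, TRBD2: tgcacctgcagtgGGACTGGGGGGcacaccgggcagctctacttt
TRBV2/TRBJ2-3, no D call: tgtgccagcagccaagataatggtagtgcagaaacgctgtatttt
TRBV3/TRBJ1-2, no D call: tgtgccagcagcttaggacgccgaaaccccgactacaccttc
The first chain lost 1 base at the 5′ end of TRBD1 and 4 at the 3′ end, and the second lost 1 base at the 5′ end of TRBD2 and 2 at the 3′ end. Both had 0 untemplated bases between V and D and read the D in the GTGG frame. The chains without a D call each held 7 bases between the V and the J match.

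These chains were also found in other mice, at a low transcript count. The TRBD1 chain had a median of 3 transcripts in mouse-164B tumor, where 34.3% of its cells had 1 transcript. In the 12 tables of other mice it was in 663 cells, at most 120 in a table (mouse-160C thymus), and 98.6% of those cells had 1 transcript. The TRBD2 chain was in 303 cells of 12 tables of other mice, 98.7% of them with 1 transcript, against 34.7% in mouse-160C tumor. For both chains the thymus table with the most cells came from another mouse than the tumor, mouse-160C for the TRBD1 chain and mouse-155A, with 54 cells, for the TRBD2 chain. The chains with the most cells among those found in 7 of 7 mice were the same TRBD1 and TRBD2 chains. Without a D call it was a TRBV14 chain with TRBJ2-2, in 469 cells of mouse-160C tumor and 177 cells of other mice, and 98.3% of the latter had 1 transcript. Whether the cells of the other mice carry these chains was not tested.

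A last set shows the extremes of D retention, chosen after their values were seen as the chains with the most cells of their kind. A TRBV3 chain with TRBJ2-5 holds TRBD2 uncut and was in 64 cells of mouse-155C spleen and 24 of its thymus. A TRBV29 chain with TRBJ1-2 holds TRBD1 uncut and was in 9 cells of mouse-160B tumor. A TRBV14 chain with TRBJ1-3_1 is the TRBD2 call with TRBJ1 in the most cells, 270 of mouse-160C tumor, and its call rests on 6 bases, all G.
TRBV3/TRBJ2-5, uncut TRBD2: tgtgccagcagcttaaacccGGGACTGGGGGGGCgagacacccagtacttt
TRBV29/TRBJ1-2, uncut TRBD1: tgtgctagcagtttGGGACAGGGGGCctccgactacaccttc
TRBV14/TRBJ1-3_1, TRBD2 call: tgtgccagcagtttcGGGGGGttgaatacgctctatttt
The first of these reads its D as GLGG and the second as GQG. The match of the last does not span the base by which the segments differ.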

How the data were processed

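Single-cell TCR libraries of mouse CD8+ T cells were made with the Parse Evercode TCR kit. The authors assembled, annotated and counted the chains with the Parse Biosciences TCR pipeline, whose version and reference set are not given here. The deposited values are counts of transcripts per chain and barcode, not normalized, with a V, D and J call and the multiplet marks of the pipeline. The submitters' processing notes name GRCm39, and germline sequences and coordinates were read from that build and its GENCODE annotation.

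Rows of the TRB locus were joined to the barcode tables, and barcodes marked as multiplets were left out. Rows with the same nucleotide CDR3, V and J in a table were counted as 1 distinct rearrangement, with the D call of the row with the most transcripts. At 27 junctions rows of a table differed in D call. All TRB rows were marked productive (0 were not), so productive and other chains could not be compared. Calls with over 1 mismatch to the germline D (541, or 0.571%) were left out of mean match lengths, trimming, untemplated bases and frames. They were kept in the shares by length or kind of match and in the lists of matched bases. Of the 2401 TRBD2 calls with TRBJ1, 2224 had no more than 1 mismatch. A broken last line was dropped from each of the 3 tables held in part. The median TRB row of a table held 1 or 2 transcripts.

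The labels put no sample in a group. Contrasts within tables were averaged per animal and tested with an exact two-sided sign-flip permutation test over 7 animals (smallest p 0.015625), adjusted by Benjamini-Hochberg over 8 tests, of which 3 (match length, untemplated bases and TRBD1 by J cluster) were added after seeing the data. Intervals of shares are 95% binomial by Clopper-Pearson, and the limit beside a 0 is the share of 3 counts. The functions were tested on simulated data. The alternatives counted cells, kept multiplets, required 2 transcripts, 1 TRB chain or 6 matched bases, and left out shared rearrangements, tables held in part, single sublibraries or single animals. Matches spanning base 6 and the D calls of the barcode tables, which hold every barcode of all 14 tables, were added after seeing the data. Named were TRBJ entries with at least 100 D-called rearrangements, the 3 highest and 3 lowest TRBV genes of those with at least 200 in TRBJ2 chains, TRBV31 and, by D call, the chains with the most cells in a thymus and a second-tissue table and in the most animals. The members and lists were chosen with earlier results of these data known. Python 3.11.15, pandas 2.3.3, numpy 2.4.6, scipy 1.17.1 and matplotlib 3.10.9 were used.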

Additional observations from a re-analysis of the deposited data

Results flagged for a closer look

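The difference in CDR3 length between TRBD1 chains with TRBJ1 and TRBD1 chains with TRBJ2 was 0.661 bases in mouse-160A, apart from the other 6 mice, which lay between 0.791 and 0.866 bases. Its gap to the nearest mouse was 0.637 of the whole range, above Dixon's critical value for 7 values. Chance takes about 1 of 20 sets of values past that critical value, and 8 sets were examined. Both tables of mouse-160A were low, with 0.641 bases in thymus and 0.681 in tumor, and the tumor tables of mouse-160B (0.651), mouse-164C (0.678) and mouse-160C (0.691) had values like them.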

How the results depend on the processing

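Of 190 test values under alternatives, 182 kept their direction and their side of the adjusted threshold of 0.05, and the other 8 all belonged to the untemplated bases. These were -0.125 with at least 2 TRB transcripts and -0.105 without the rearrangements of several animals (both adjusted p 0.0781), and -0.143 to -0.0879 with single animals left out, where the exact test lost the call in 6 of 7 cases (adjusted p 0.0625). The TRBJ2 minus TRBJ1 difference in TRBD2 share ran from 44.3 points by cells to 53.1 points, and no value reversed. Of 53 other values, 42 moved by less than their spread or counting interval. Counting cells changed the range of TRBD2 shares over V genes from 34.6 to 41.3 points and that over TRBJ2 segments from 14.1 to 10.3. It changed the median difference between the second tissue and the thymus from 1.11 to 4.40 points, and the GTGG frame's median share from 35.8% to 37.8%. With at least 2 transcripts that tissue difference was 2.80 points. Requiring 6 matched bases, with shorter matches counted as no call, gave medians of 45.4% for the TRBD2 share, 38.7% for chains without a D call and 36.3% for the GTGG frame. Taking matches that span base 6 gave 28.8% without a D call, a range over V genes of 37.2 points and 36.2% for the GTGG frame. Transcript counts near 1 per row limit what cells can show.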

Other observations

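In the thymus tables, 2462 distinct TRB rearrangements came from cells with a TRAV11 or TRAV11D chain joined to TRAJ18, the invariant NKT-like pairing. Their TRBD2 share in TRBJ2 chains was 58.7% (exact 95% interval 55.9 to 61.5), against 55.2% (54.7 to 55.8) for the 67740 other thymic rearrangements, and the tables of the former ran from 45.3% to 63.6%. The share without a D call was 26.0% in both.

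Rearrangements found in 3 or more animals (3487) had a TRBD2 share in TRBJ2 chains of 51.7% (49.3 to 54.0), those of 2 animals (13839) had 55.2% and those of 1 animal (85416) had 56.9% (56.4 to 57.4). The share without a D call was 29.2% (27.7 to 30.7), 26.5% and 25.6%, and the mean CDR3 was 41.5, 41.8 and 42.0 bases. The chains with the most cells named above were found in other mice mostly at 1 transcript. Such rows count here as further animals, and whether those cells carry the chains was not tested. By the number of cells that held a rearrangement in a table, the TRBD2 share in TRBJ2 chains of the tumor tables was 57.2% for 1 cell (56.5 to 57.9) and 60.7% for 10 or more cells (54.0 to 67.1), with 58.9% for 2 to 9 cells. In thymus tables it was 55.5% for 1 cell and 54.4% for 2 to 9 cells, and 45 of 90 D-called chains carried TRBD2 at 10 or more cells (39.3 to 60.7). In spleen tables it was 56.1%, 52.2% (47.4 to 57.0) and 52.0% (31.3 to 72.2) in the same order.

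The 8 sublibraries agreed closely, with TRBD2 shares of 54.2% to 56.9% in TRBJ2 chains and 6.78% to 8.52% in TRBJ1 chains.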
